A study of Mus musculus with 8 samples.

Results

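The regions described here are long stretches of the mouse genome that carried more HA-tagged histone H3.3 in a cell line expressing H3.3K36M than in a line expressing wild type H3.3 (H3.3WT). They were chosen from a table of HA chromatin immunoprecipitation sequencing (ChIP-seq) signal in 10 kb rows, given as RPM, in which the reads of a row are scaled to library size. A row passed where its mean over 4 libraries was at least 0.5 RPM and H3.3K36M was at least 2-fold above H3.3WT after 0.1 RPM was added to each. A domain was a run of at least 5 touching rows, 50 kb or longer, that all passed. The rule found 82 domains made of 588 rows (5.88 Mb), among 245206 rows (2452.06 Mb) on chromosomes 1 to 19 and X.

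All libraries came from C3H10T1/2 cells, mesenchymal progenitors derived from C3H mouse embryos, at passages 10 to 15. The lines each stably expressed 1 histone with FLAG and HA tags: H3.3K36M, H3.3WT, H3.1K36M or H3.1WT, where K36M replaces lysine with methionine in the histone tail. Untagged H3 remains in such cells and is not seen by the HA antibody. There was 1 HA library per line, with 38783917 reads (H3.3K36M), 46749609 (H3.3WT), 41705735 (H3.1K36M) and 35487141 (H3.1WT). The labels do not say whether a line is a pool or a clone, nor which promoter drove the histone. The 4 input libraries were not used here, so copy number in a line and the amount of histone cannot be told apart. The lines were not replicated, so differences between them were not tested, and every interval covers counting error only.

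H3.3 is a histone H3 variant that chaperones place throughout the cell cycle, HIRA mainly in active genes and regulatory elements and ATRX with DAXX in heterochromatin and at telomeres. H3.1 is placed mainly as DNA is copied, and so reaches most of the genome. Lysine 36 of H3 is methylated by enzymes that include SETD2 and the NSD family, and the methionine form is known to inhibit such enzymes. Which genes lie in the domains is not given, because no annotation or genome of the build of these files (mm9) was used here. For the same reason no sequence is shown.

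The domains were poor in H3.3 in the H3.3WT line and average to rich in H3.3 in the H3.3K36M line. Over domains, the signal per 10 kb was lowest at 2.36 RPM, had a median of 4.05 RPM and was highest at 19.6 RPM for H3.3K36M. In H3.3WT the lowest was 0.846 RPM, the median 1.49 RPM and the highest 7.33 RPM. The medians of all rows were 3.004 RPM for H3.3K36M and 2.77 RPM for H3.3WT. The typical domain therefore stood at 1.35 times the library median in H3.3K36M and at 0.536 times the library median in H3.3WT. In H3.3K36M 65 of 82 domains lay above the library median, against 6 of 82 in H3.3WT, where 64 lay below the 25th percentile of rows (1.83 RPM). These levels chose the members and are a description. A 2-fold or greater excess of H3.3K36M was seen in 7211 of all rows (2.94%), and the domains held 8.15% of them (0.24% of all rows).

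**Figure D1:**
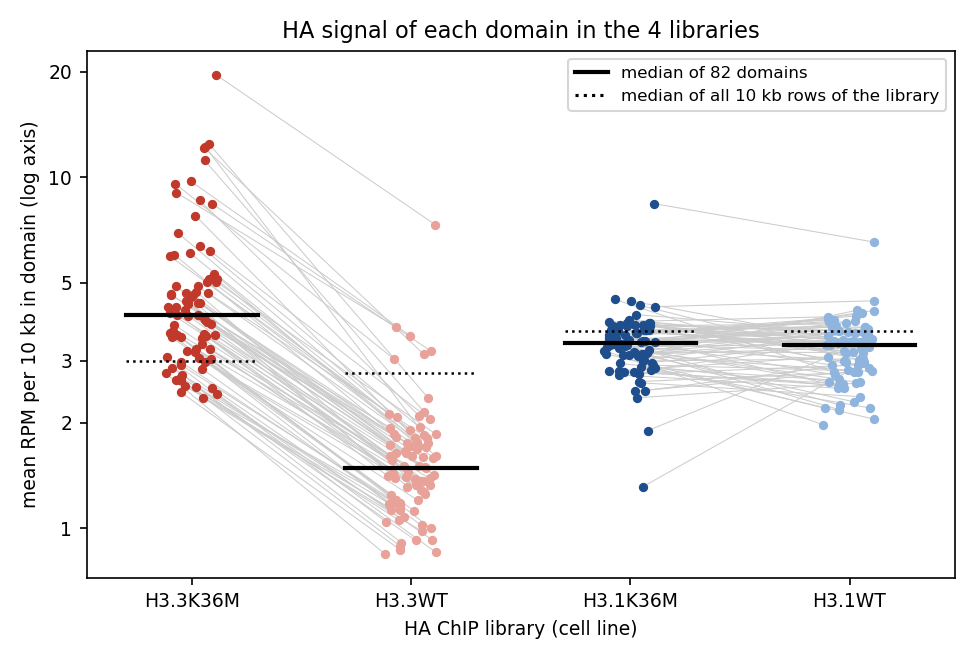
Each point is 1 of 82 domains, as its mean RPM per 10 kb (log axis) in the 4 HA libraries, with grey lines joining the same domain within a histone variant, thick bars at the median of domains and dotted bars at the median of all rows. Domains sit around 4.05 RPM for H3.3K36M and 1.49 RPM for H3.3WT, while H3.1K36M and H3.1WT are close together at 3.38 and 3.34 RPM.

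Most rows with as little H3.3WT as the domains were not 2-fold higher in the H3.3K36M line. The middle 50% of domain rows held 1.14 to 1.91 RPM for H3.3WT. Outside the domains, 56514 rows had an H3.3WT level in that range, and their median was 2.20 RPM for H3.3K36M, a median log2 ratio of 0.45. Of the outside rows of this range, 6.31% passed the 2-fold threshold. Choosing rows for a low H3.3WT value raises their ratio by itself, and domain rows passed 2-fold by the rule, so the ratios inside and outside are not compared.

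Most domains were short, and the fold was close to the threshold in many. There were 33 of 50 kb, 20 of 60 kb, 11 of 70 kb, 6 of 80 or 90 kb and 12 of 100 kb or more. The fold of H3.3K36M over H3.3WT ran over domains from 2.23 to 6.61, with a median of 2.77, and it was at least 3 in 22 domains and at least 4 in 5.

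At the threshold, the rule divides rows that hardly differ. The weakest domain row, chr4:153680001-153690000, had 1.74 RPM for H3.3K36M and 0.817 RPM for H3.3WT, a log2 ratio of 1.0010. A touching row left out, chr2:172400001-172410000, had 2.72 RPM for H3.3K36M and 1.31 RPM for H3.3WT, a log2 ratio of 0.998. By mean log2 ratio the weakest domain was chr18:66950001-67000000 at 1.09, with 2.65 RPM for H3.3K36M and 1.19 RPM for H3.3WT. Another 54 runs of 4 rows missed the length, the strongest being chr18:46140001-46180000 with 5.96 RPM for H3.3K36M and 1.51 RPM for H3.3WT, a mean log2 ratio of 1.85. The medians of such runs were 3.60 RPM for H3.3K36M and 1.42 RPM for H3.3WT, near those of the domains.

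The highest fold was in a region of chromosome 14. Domains named as extremes were ranked on the same reads, for which their intervals make no allowance. At chr14:95480001-95550000 (70 kb) the signal was 12.2 RPM for H3.3K36M, 1.85 RPM for H3.3WT, 3.03 RPM for H3.1K36M and 3.63 RPM for H3.1WT. Its rows ran from 5.44 to 17.7 RPM for H3.3K36M and from 1.16 to 2.26 RPM for H3.3WT. These ranges did not overlap, but each row was chosen for a 2-fold excess, so this is a description. The fold was 6.61 (95% exact interval 6.06 to 7.22). The next domain, chr14:95570001-95740000 (170 kb), had 7.78 RPM for H3.3K36M, 1.81 RPM for H3.3WT, 2.79 RPM for H3.1K36M and 3.42 RPM for H3.1WT, a fold of 4.29 (4.05 to 4.56). What lies between them is a row of 20 kb, which the rule left out for its width. Per 10 kb it held 10.3 RPM for H3.3K36M, 1.32 RPM for H3.3WT, 2.61 RPM for H3.1K36M and 3.27 RPM for H3.1WT. Its ratio was above that of both domains, which with it span 260 kb.

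The domain chr10:102960001-103120000 (160 kb) had 12.4 RPM for H3.3K36M, 2.35 RPM for H3.3WT, 1.90 RPM for H3.1K36M and 3.41 RPM for H3.1WT. The H3.3 fold was 5.30 (5.03 to 5.59). Its core was denser, with rows up to 24.9 RPM for H3.3K36M, while no row passed 3.57 RPM for H3.3WT. At chr8:53140001-53230000 (90 kb) there were 11.2 RPM for H3.3K36M, 2.15 RPM for H3.3WT, 3.41 RPM for H3.1K36M and 4.09 RPM for H3.1WT, an H3.3 fold of 5.20 (4.83 to 5.59). The 200 kb domain chr4:23180001-23380000 had 8.59 RPM for H3.3K36M, 2.10 RPM for H3.3WT, 3.1 RPM for H3.1K36M and 4.18 RPM for H3.1WT, a fold of 4.10 (3.90 to 4.32). In the chromosome 8 domain the lowest H3.3K36M row (3.91 RPM) stood above the highest H3.3WT row (2.56 RPM), and so it did in the chromosome 4 domain (4.69 RPM against 2.64 RPM). In the chromosome 10 domain rows overlapped, with a lowest H3.3K36M row of 1.89 RPM and a highest H3.3WT row of 3.57 RPM. The rule chose each row for a 2-fold excess, so these gaps between ranges are a description too.

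At chr3:45020001-45100000 (80 kb) H3.3K36M had 12.1 RPM, H3.3WT 3.14 RPM, H3.1K36M 1.31 RPM and H3.1WT 2.95 RPM. The H3.3 fold was 3.87 (3.62 to 4.13), and H3.3WT was already above its library median. The longest domain was chr16:47470001-47700000 (230 kb), where signal was 5.31 RPM for H3.3K36M, 1.59 RPM for H3.3WT, 2.97 RPM for H3.1K36M and 3.46 RPM for H3.1WT. Its rows lay between 3.37 and 8.03 RPM for H3.3K36M and between 0.881 and 2.21 RPM for H3.3WT, and the fold was 3.34 (3.16 to 3.54). No row of it reached the highest rows of the chromosome 10 and 14 domains.

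Another kind of domain was high in every library. The domain chr3:92010001-92110000 (100 kb) had 19.6 RPM for H3.3K36M, 7.33 RPM for H3.3WT, 8.41 RPM for H3.1K36M and 6.54 RPM for H3.1WT, all above the medians of their libraries. Its rows spread from 2.59 to 40.1 RPM for H3.3K36M and from 1.14 to 16.5 RPM for H3.3WT. The H3.3 fold was 2.67 (2.57 to 2.78) and the H3.1 fold of K36M over WT was 1.29 (1.22 to 1.36). Next to it, rows within 50 kb outside averaged 4.35 RPM for H3.3K36M and 2.36 RPM for H3.3WT, so the region stood out in the wild type line too.

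**Figure D2:**
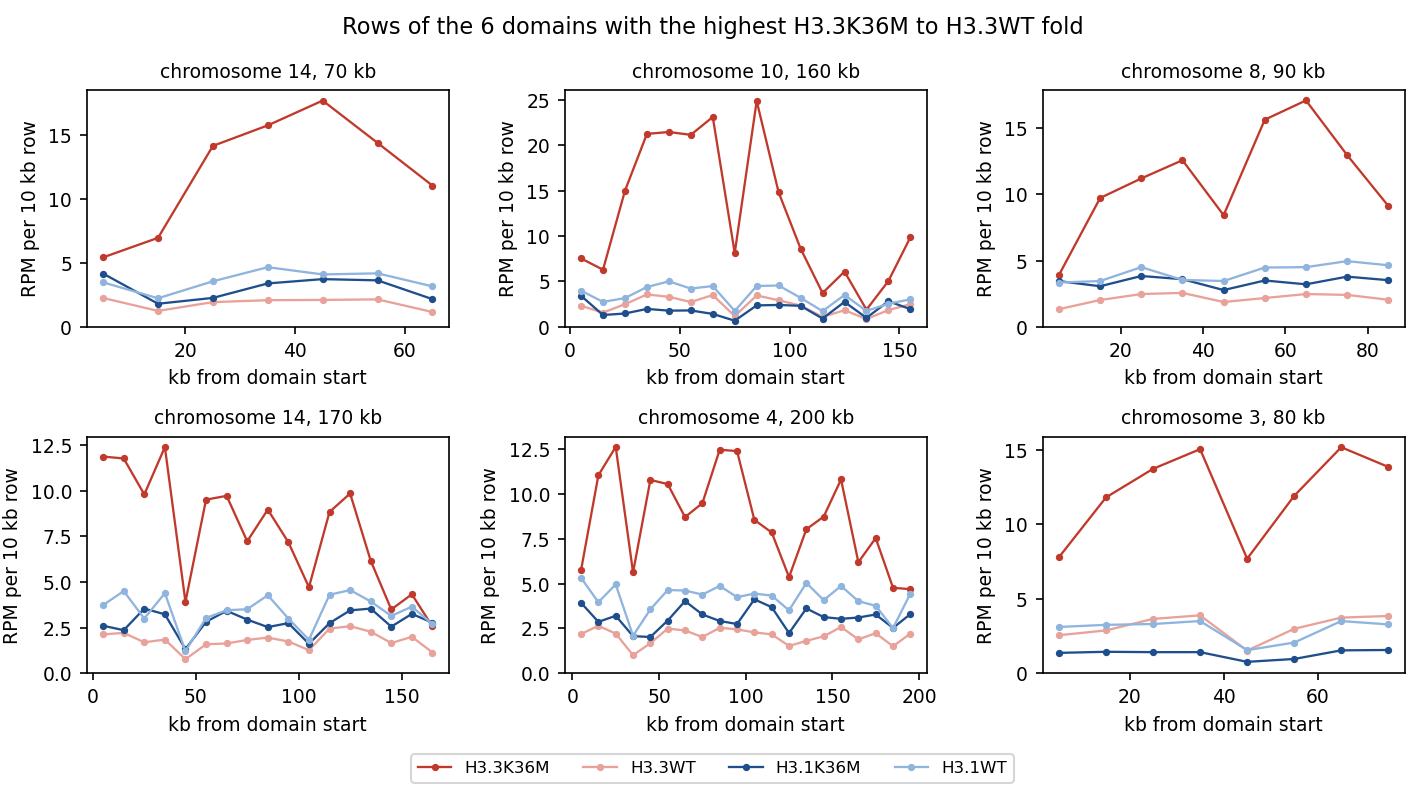
RPM in each 10 kb row against the distance from the start of the domain (kb), for the 6 domains with the highest fold of H3.3K36M over H3.3WT, 1 line per HA library. H3.3K36M reaches 24.9 RPM in the chromosome 10 domain, where H3.3WT stays at or below 3.57 RPM, and H3.1K36M runs below H3.1WT in most rows of the chromosome 3 and 10 domains.

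H3.1 signal, which the ratio of the rule did not use, was somewhat below its usual level in most domains. H3.1K36M had a median over domains of 3.38 RPM, with a range from 1.31 to 8.41 RPM, and H3.1WT had 3.34 RPM, from 1.97 to 6.54 RPM. The medians of all rows were 3.64 RPM for H3.1K36M and 3.65 RPM for H3.1WT. At or below the library median lay 58 of 82 domains in H3.1K36M and 62 in H3.1WT. Below the 25th percentile of rows lay 21 domains in H3.1K36M and 29 in H3.1WT, against 5 and 2 above the 75th. The median log2 ratio of H3.1K36M over H3.1WT over domains was 0.05 (SD 0.29 over 82 domains), against -0.00094 over all rows. Of the domain rows, 318 of 588 (54.1%) were higher in H3.1K36M, against 49.8% of all rows. The H3.1 fold had its interval above 1 in 28 domains (34.1%), below 1 in 17 (20.7%) and across 1 in 37. When all rows were cut into 39130 windows of 60 kb, the median length of a domain, the interval lay above 1 in 17.0% and below 1 in 16.7% of windows, so counting error alone is a lenient bar between these libraries. Of the 20 domains of 60 kb, 10 had it above 1 and 2 below 1.

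In 2 domains H3.1K36M was far below H3.1WT. At chr3:45020001-45100000 the H3.1 signal was 1.31 RPM for H3.1K36M and 2.95 RPM for H3.1WT, 2.25-fold lower in H3.1K36M (2.00 to 2.53). At chr10:102960001-103120000 it was 1.90 RPM for H3.1K36M and 3.41 RPM for H3.1WT, 1.80-fold lower in H3.1K36M (1.67 to 1.93). These domains held all 14 domain rows in which H3.1K36M was at least 2-fold lower (7 of 8 rows on chromosome 3 and 7 of 16 on chromosome 10). That is 2.38% of domain rows, against 0.064% of all rows (157), so the 2 domains held 8.92% of all such rows. An excess was not particular to domains with higher H3.3K36M. Domains of the opposite kind, with H3.3K36M at least 2-fold lower (described below), held 24 such rows among 1253 (1.92%). Compared with rows within 50 kb outside, H3.1K36M was at 0.519 times their level in the chromosome 3 domain and 0.477 times in the chromosome 10 domain. H3.1WT was at 0.977 and 0.848 times the level outside. The low H3.1 was thus a local dip in the H3.1K36M line, at places where H3.3K36M was 12.1 and 12.4 RPM.

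The domain chr4:23180001-23380000 came next, 1.35-fold lower in H3.1K36M (1.28 to 1.42), followed by chr18:18910001-18980000, with 3.39 RPM for H3.1K36M and 4.17 RPM for H3.1WT, 1.23-fold lower (1.13 to 1.35). With H3.3K36M at 6 RPM or more, a limit set after the values were seen, 12 of 16 domains had the lower value in H3.1K36M, with a median log2 ratio of -0.12. Under 6 RPM it was 26 of 66, with a median log2 ratio of 0.10. The split uses a level that the rule also used, and the difference between the 2 sets was not tested.

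In the other direction, H3.1K36M was highest over H3.1WT at chr4:139620001-139800000 (180 kb), with 3.21 RPM for H3.1K36M and 1.97 RPM for H3.1WT, a fold of 1.63 (1.52 to 1.74). H3.3 there was 2.77 RPM for H3.3K36M and 0.846 RPM for H3.3WT, 3.27-fold (3.0 to 3.57). The domain chr7:50770001-50820000 had 4.49 RPM for H3.1K36M and 2.78 RPM for H3.1WT, a fold of 1.61 (1.44 to 1.80). A pair of neighbours on chromosome 4 followed, chr4:153550001-153630000 at 1.52-fold (1.37 to 1.68) and chr4:153640001-153810000 at 1.5-fold (1.40 to 1.60). At chr11:114290001-114350000 the fold was 1.43 (1.30 to 1.58). In 2 domain rows H3.1K36M was 2-fold or more above H3.1WT, as it was in 0.0122% of all rows, 1 in each of the chromosome 4 domains of 180 and 170 kb.

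**Figure D3:**
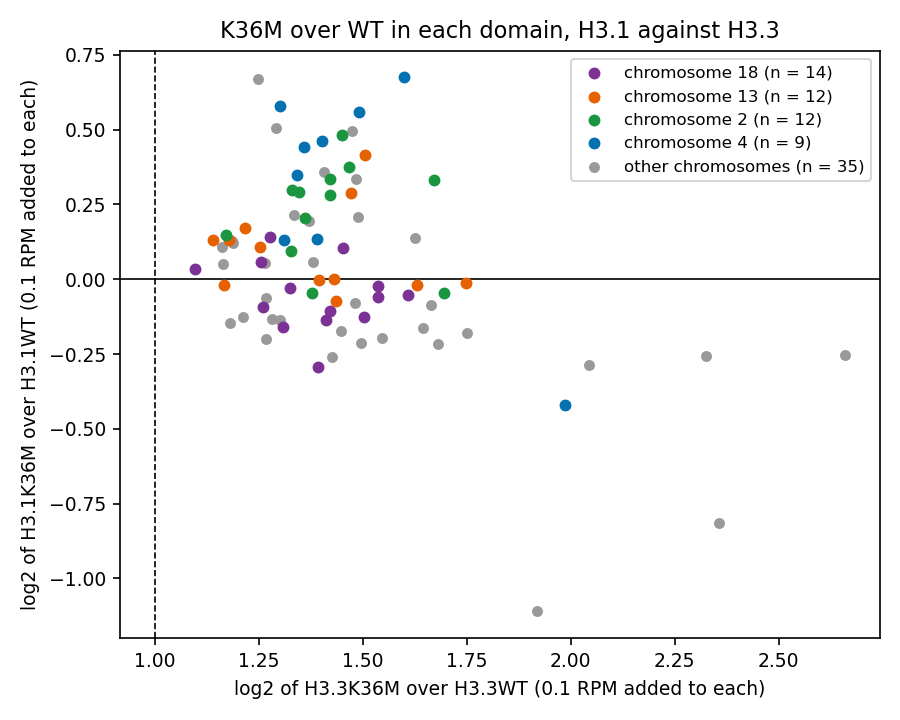
Each point is a domain, by its log2 ratio of K36M over WT for H3.3 (horizontal) and for H3.1 (vertical), coloured for the 4 chromosomes with the most domains; the dashed line is the 2-fold threshold of the rule. The domains with the highest H3.3 ratios lie below 0 for H3.1, down to -1.11, and most domains of chromosomes 2 and 4 lie above 0.

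Set against H3.1 of the same genotype, H3.3 was the higher variant in most domains of the K36M lines and the lower one in most domains of the WT lines. In K36M lines H3.3K36M lay above H3.1K36M in 55 domains, with a median log2 ratio of 0.25. Of the domain rows 387 (65.8%) had H3.3K36M above H3.1K36M, against 32.1% of all rows. In WT lines H3.3WT lay below H3.1WT in 79 of 82 domains, with a median log2 ratio of -1.08, and only 19 domain rows (3.23%) had H3.3WT above H3.1WT, against 35.7% of all rows. There were 52 domains with H3.3 above H3.1 in K36M lines and below it in WT lines, 27 with H3.3 below H3.1 in both and 3 with H3.3 above H3.1 in both. H3.3WT was the lowest of the 4 libraries in 77 domains, and H3.3K36M the highest in 55. The H3.3 libraries were used to choose the domains, so this is a description.

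In the medians over domains, the edges were seen in H3.3K36M and hardly in the other libraries, but single domains differed. In H3.3K36M the median row was at 3.60 RPM in the first 10 kb inside an edge and at 2.62 RPM in the first 10 kb outside. In H3.3WT it was at 1.43 RPM inside and 1.52 RPM outside. H3.1K36M had 3.41 RPM inside and 3.46 RPM outside, and H3.1WT 3.20 RPM inside and 3.08 RPM outside. The first outer row failed the rule by construction, so the step at the edge is partly set by the rule. Over the 82 domains, the mean inside was a median of 1.48 times that within 50 kb outside in H3.3K36M and 0.951 times in H3.3WT. It was at least 1.5 times in 37 domains in H3.3K36M and in 2 in H3.3WT. All inside rows were chosen for an excess of H3.3K36M over H3.3WT, so these ratios of inside to outside are a description. The highest ratio of inside to outside was at chr14:95480001-95550000, where H3.3K36M was 12.2 RPM inside and 2.22 RPM outside, 5.50 times. H3.3WT there was 1.85 RPM inside and 1.49 RPM outside. This ratio rests on 5 outside rows, which lie before the domain. After its end the 20 kb row described above held 10.3 RPM per 10 kb for H3.3K36M, so no such step was seen there. In chr3:45020001-45100000 H3.3K36M was 4.76 times and H3.3WT 1.67 times the level outside. The mean inside was above that outside in 78 of 82 domains in H3.3K36M and in 31 in H3.3WT. The lowest ratios were at chr4:153550001-153630000, at 0.821 times in H3.3K36M and 0.408 times in H3.3WT. There H3.3WT was 1.15 RPM inside and 2.81 RPM outside, and H3.3K36M 2.97 RPM inside and 3.62 RPM outside.

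Beyond the edges the H3.3 ratio stayed above that of all rows over long distances. Of the 156 touching outer rows, all had an H3.3 log2 ratio (K36M over WT) above 0, with a median of 0.77. The median was 0.79 at 50 kb outside, 0.70 at 100 kb and 0.54 at 200 kb, against 0.10 over all rows. Rows outside the domains with 1.14 to 1.91 RPM for H3.3WT, wherever they lay, had a median of 0.45. Chromosomes 18 and 13, with 14 and 12 of the domains, had medians of 0.36 and 0.29 over all their rows. How much of the ratio around the domains goes with these was not tested. At 200 kb, 84.6% of the rows still had a ratio above the median of all rows. Extending each domain through touching rows above that median gave 73 separate zones, with a median of 360 kb and a highest length of 1090 kb. H3.3WT was also low at 200 kb outside, with a median of 1.68 RPM. Rows around the domains were thus typically poor in H3.3 in H3.3WT and less so in H3.3K36M.

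**Figure D4:**
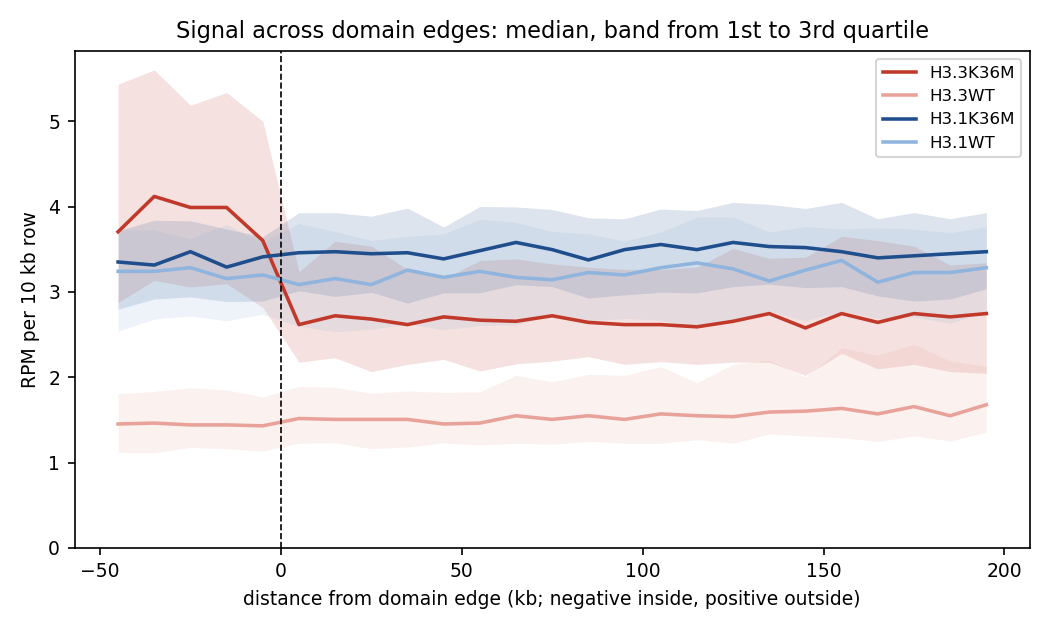
Median RPM per 10 kb row (lines; bands run from the 1st to the 3rd quartile of rows) from 50 kb inside to 200 kb outside the edges of the 82 domains, for the 4 HA libraries. H3.3K36M is at 3.60 RPM just inside and 2.62 RPM just outside, and H3.3WT is at 1.43 RPM just inside and 1.52 RPM just outside.

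Domains were unevenly spread over chromosomes. Chromosome 18 had 14, chromosomes 13 and 2 had 12 each and chromosome 4 had 9, which makes 57.3% of the domains on 20.9% of the rows. Per 100 Mb of rows used, there were 16.5 domains on chromosome 18, 10.7 on chromosome 13, 6.97 on chromosome 2 and 6.27 on each of chromosomes 4 and 12. Chromosomes 15, 19 and X had none. On the first of these, 0.54% of the rows passed the 2-fold threshold. Whole chromosomes differed too: the median log2 ratio of all rows was 0.36 on chromosome 18 and 0.29 on chromosome 13, against 0.11 on chromosome 2, 0.04 on chromosome 4 and -0.20 on chromosome 15. The medians and the domains did not always go together: chromosome 6 had a median of 0.24 and 4.63% of its rows past 2-fold but 3 domains, and chromosomes 19 (0.15) and X (0.16) had none. When each chromosome was set to its own median ratio, 1 of the 14 domains of chromosome 18 and 0 of the 12 of chromosome 13 were still found, against 6 of 12 on chromosome 2 and 7 of 9 on chromosome 4. The part of copy number in these medians was not tested.

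**Figure D5:**
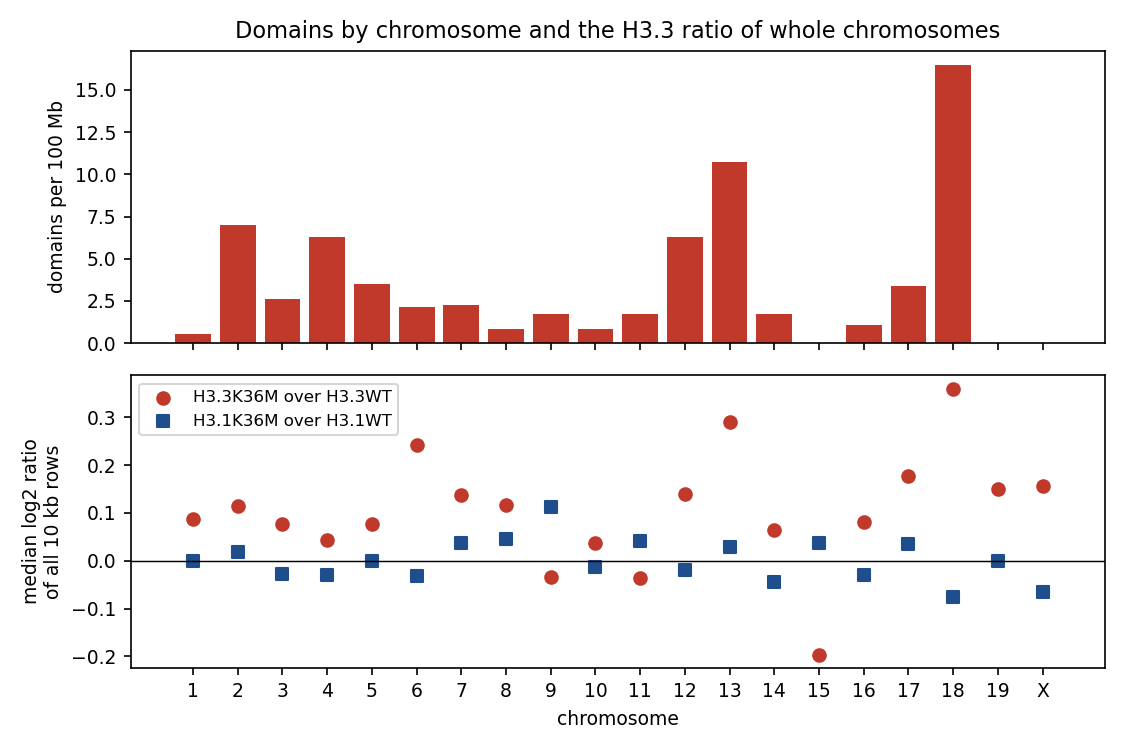
Upper panel, domains per 100 Mb of 10 kb rows used on each chromosome; lower panel, median log2 ratio of K36M over WT of all rows of the chromosome, for H3.3 (circles) and H3.1 (squares). Chromosomes 18 and 13 have the most domains (16.5 and 10.7 per 100 Mb) and the highest H3.3 medians (0.36 and 0.29), which H3.1 does not share.

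The domains of these chromosomes differed in level and in H3.1. On chromosome 18 they ran from 2.65 to 5.12 RPM for H3.3K36M and from 1.12 to 1.86 RPM for H3.3WT. H3.1 there was lower in H3.1K36M in 10 of 14 domains, with a median log2 ratio of -0.06, close to the -0.08 of the whole chromosome. On chromosome 13 they ran from 2.65 to 9.74 RPM for H3.3K36M and from 0.89 to 3.54 RPM for H3.3WT. Its H3.1 log2 ratios had a median of 0.06. On chromosome 2 the range was 3.24 to 6.93 RPM for H3.3K36M and 1.25 to 2.07 RPM for H3.3WT. H3.1K36M was higher there in 10 of 12 domains, with a median log2 ratio of 0.29 against 0.02 over the chromosome.

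Chromosome 4 held domains of both kinds. Beside the domain at 23 Mb described above, 8 lay in its distal part, far from the centromere. These 8 had low signal, most of all in the WT lines, with 0.846 to 1.29 RPM for H3.3WT and 1.97 to 2.61 RPM for H3.1WT. They held 2.42 to 3.35 RPM for H3.3K36M and 2.81 to 3.36 RPM for H3.1K36M. All 8 were thus below the library median of H3.1K36M (3.64 RPM). For H3.3K36M their median was 2.63 RPM, against a library median of 3.004 RPM. All 8 were higher in H3.1K36M than in H3.1WT, with a median log2 ratio of 0.45, against -0.03 over all rows of the chromosome. The interval of the H3.1 fold lay above 1 in 6 of the 8. In these domains, then, both K36M libraries were above the WT library of their variant.

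Many domains lay towards the distal ends of chromosomes, which in the mouse are the ends far from the centromere. The last 20% of the chromosome's length held 32 of 82 domains (39.0%), against 20.6% of all rows, and 17 of the 32 were on chromosomes 2 (10) and 4 (7). Outside these 2 chromosomes it was 15 of 61 (24.6%). The medians of the distal domains were 3.49 RPM for H3.3K36M, 1.29 RPM for H3.3WT, 3.42 RPM for H3.1K36M and 2.997 RPM for H3.1WT. Among them 27 of 32 were higher in H3.1K36M than in H3.1WT, with a median log2 ratio of 0.21, against 17 of 50 of the other domains, with a median of -0.07. All rows of the last 20% had a median H3.1 log2 ratio of 0.04, and the remaining rows -0.01.

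Some domains lay close together. With gaps under 1 Mb counted as 1 group, 23 of the domains fell into 9 groups and 59 stood alone. The largest groups held 4 domains. One spans 570 kb at chr4:153550001-154120000, where 360 kb belonged to domains and the median row was 2.31 RPM for H3.3K36M, 0.946 RPM for H3.3WT, 3.25 RPM for H3.1K36M and 2.29 RPM for H3.1WT. The other spans 750 kb at chr2:172060001-172810000, with 3.52 RPM for H3.3K36M, 1.51 RPM for H3.3WT, 3.74 RPM for H3.1K36M and 2.80 RPM for H3.1WT. Some gaps were only 1 row wide. At chr4:153630001-153640000 H3.3K36M had 2.20 RPM and H3.3WT 1.08 RPM, a log2 ratio of 0.97. At chr12:6810001-6820000 the values were 1.37 RPM for H3.3K36M and 0.688 RPM for H3.3WT, a log2 ratio of 0.90, and H3.1 was also low there, at 1.33 RPM for H3.1K36M and 1.16 RPM for H3.1WT. These divisions rest on rows just under the threshold.

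Most domains held no peak of H3.3K36M from the authors' list, which gives positions with no score. At least 1 base of a peak lay in 19 of 82 domains (23.2%), and 17 of the 19 held 1 peak. Of the domain rows, 39 (6.63%) held a peak, against 4.25% of all rows, but 11 of the 39 lay in chr10:102960001-103120000 alone. How many stretches of like length elsewhere held a peak was not computed. The peaks were called on a library of the rule, so the shares are a description. The most peak sequence was in chr10:102960001-103120000, with 4 peaks covering 78 kb, of which the longest was 50.2 kb. A 22.6 kb peak lay in chr8:53140001-53230000, and 2 peaks covering 12.4 kb lay in chr13:27150001-27220000, where H3.3K36M had 9.74 RPM and H3.3WT 3.54 RPM. Peaks covered 5.6 kb of chr6:65510001-65600000, with 6.37 RPM for H3.3K36M and 1.94 RPM for H3.3WT, and 4.6 kb of chr17:91800001-91850000, with 6.16 RPM for H3.3K36M and 2.05 RPM for H3.3WT.

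High signal did not always mean a peak. The domain chr3:45020001-45100000, at 12.1 RPM for H3.3K36M, held none, and the nearest peak was 3628.8 kb away. There was none in chr4:23180001-23380000 (8.59 RPM for H3.3K36M) or chr14:95570001-95740000 (7.78 RPM) either. Among domain rows with at least 12 RPM for H3.3K36M, 15 of 37 (40.5%) held a peak, against 54.5% of the 4916 such rows outside the domains. Between 9 and 12 RPM it was 5 of 26 (19.2%) against 35.1%, and between 6 and 9 RPM 12 of 79 (15.2%) against 15.5%. Most domain rows were lower than that, and few of them held a peak. Between 3 and 6 RPM it was 6 of 303 (1.98%) against 1.05%, and below 3 RPM 1 of 143 (0.70%) against 0.011%. These counts of domain rows are too small to give a direction. The domain rows come from few domains and are not independent, and the sources used here do not say how peaks were called. No peak of the H3.1K36M list, which has 73 peaks, lay in a domain. Only 0.034% of all rows held such a peak, so its absence from 588 rows says little about the domains.

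At the 2-fold threshold, domains of the opposite kind were more common. The same rule with H3.3K36M at least 2-fold lower gave 153 domains (12.53 Mb), with a longest of 300 kb. At other thresholds the order turned, with 1122 higher and 899 lower domains at 1.5-fold, and 8 higher and 4 lower at 3-fold. Their median was 2.72 RPM for H3.3K36M and 6.85 RPM for H3.3WT, so they were rich in H3.3 in the H3.3WT line, unlike the 82 domains. Of all rows 1.81% were at least 2-fold lower, and 28.3% of those lay in such domains (0.511% of all rows), against 8.15% of the higher rows in the 82 domains. Chromosomes 13, 18 and 19 held 0 of the lower domains, and chromosome 15 held 24. The H3.1 log2 ratio had a median of -0.05 in them, against 0.05 in the 82 domains. An H3.3K36M peak lay in 8 of the 153 lower domains (5.23%), against 23.2% of the 82. The rule set H3.3K36M low in the lower domains, so this too is a description.

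The number of domains rested on how the libraries were scaled. Dividing the H3.3 ratios by their median, which lowered log2 ratios by 0.11, left 42 domains higher and 258 lower in H3.3K36M, so that the higher share was 14% in place of 34.9%. Most of the rows of 40 of the 82 domains stayed in a domain after that scaling, 32 after each chromosome was set to its own median and 14 when 1 RPM was added in place of 0.1 RPM. In 13 domains they stayed in all 3 cases. These 13 included the chromosome 3, 4, 8, 10, 14 and 16 domains described with their rows above, and chr18:40530001-40590000, with 5.02 RPM for H3.3K36M and 1.71 RPM for H3.3WT. H3.1K36M was below H3.1WT in 10 of the 13, while 49.8% of all rows were higher in H3.1K36M. The interval of the H3.1 fold lay below 1 in 8 of the 13 and above 1 in 3. Of the 60 kb windows over all rows, 16.7% had it below 1 and 17.0% above. Adding 1 RPM favours domains of high signal, so these counts are not separate from the split at 6 RPM given above.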

How the data were processed

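HA ChIP-seq of 4 C3H10T1/2 lines was analysed, 1 library each, grouped by the genotype labels; an H3.1 name at the start of 2 titles of H3.3 libraries and a Cbx2 antibody in the protocol text went against these labels and against the HA antibody of the descriptions, and were not followed. Reads were processed with Bowtie 1.0.0 and build mm9, per the submitters' processing notes; row counting, duplicates and the peak caller are not given there. RPM per genomic row and lists of peak positions were deposited by the authors. Divided by the smallest value of its column, 100% of the RPM values came out whole (within 0.01 of a read), which gave reads per row and the exact 95% intervals of folds. The median domain row held 155 reads in H3.3K36M, 68 in H3.3WT, 138 in H3.1K36M and 115 in H3.1WT. Only 10 kb rows were used; 4029 wider rows were left out. Domain calling and intervals were tested on simulated data with planted 3-fold runs and counting error only, which does not cover folds near the 2-fold threshold. Named domains are the 10 longest, the 10 of highest H3.3 fold, the 5 of highest H3.3K36M RPM, 5 of highest and 5 of lowest H3.1 fold, the 5 with most peak bases, and those nearest the threshold; others named (group members, chr18:40530001-40590000) were picked once their values had been seen. The members and rules were chosen with earlier results of these data known. Coordinates are 1-based in mm9. Alternatives are given in the closing section. Python 3.11.15, numpy 2.4.6, pandas 2.3.3 and scipy 1.17.1 were used.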

Additional observations from a re-analysis of the deposited data

Results flagged for a closer look

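In the domains named here H3.1 was lower in the K36M line than in the WT line, while H3.3 was higher, as the rule requires of every domain. They are not typical: H3.1 was lower in 38 of the 82 domains and higher in 44. Each value rests on 1 library per line, and the difference between the variants was not tested. The log2 ratio of H3.1K36M over H3.1WT was -1.11 at chr3:45020001-45100000, -0.81 at chr10:102960001-103120000, -0.42 at chr4:23180001-23380000 and -0.29 at both chr18:18910001-18980000 and chr14:95570001-95740000. The interval of the H3.1 fold, which covers counting error only, lay below 1 in 17 domains and above 1 in 28.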

How the results depend on the processing

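The 82 domains (5.88 Mb), their median H3.1 log2 ratio of 0.05, their share of 23.2% with a peak and the 153 lower domains were recomputed under other settings. Adding 1 RPM gave 16 domains, 1.36 Mb, an H3.1 ratio of -0.16, 37.5% with a peak and 42 lower domains; adding 0.01 RPM moved the H3.1 ratio to 0.0821. Keeping rows at or above the median signal gave 15 domains, 0.9 Mb and an H3.1 ratio of -0.14. Scaling by the median of ratios gave 42 domains, 3.03 Mb, an H3.1 ratio of -0.0140 and 258 lower domains, and centring each chromosome 32 domains, 2.72 Mb and an H3.1 ratio of 0.15. A 1.5-fold threshold gave 1122 domains, 88.2 Mb, an H3.1 ratio of 0.0212, 11.9% with a peak and 899 lower domains. A 3-fold threshold gave 8 domains, 0.76 Mb, an H3.1 ratio of -0.34, 37.5% with a peak and 4 lower domains. Runs of 3 or more rows gave 339 domains, 14.1 Mb, an H3.1 ratio of -0.0013 and 385 lower domains. Runs of 10 or more gave 12 domains, 1.75 Mb, an H3.1 ratio of -0.0662, 58.3% with a peak and 36 lower domains. Bridging 1 row gave 218 domains, 17.0 Mb, an H3.1 ratio of 0.0143 and 263 lower domains. Without chromosome 18, a setting added after seeing the data, the H3.1 ratio was 0.11. The cause was not tested. No filter, or wider rows included, kept these 5 values near the main ones, and requiring 1 kb of peak, which bears on the share with a peak alone, left it at 23.2%. Lower domains outnumbered higher ones except at the 1.5-fold and 3-fold thresholds. No paired analysis was possible because each group has 1 library. The sign of the median H3.1 ratio thus depends on the setting. Depth limits single rows more than domains: a domain row held a median of 68 reads in H3.3WT.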
